A study of Mus musculus with 6 samples.

Results

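A set of 10 genes, of 53715 in the count table, were followed across the 6 libraries of piriform cortex, a primary cortical area for smell. They were taken by name and cover endothelial identity (Pecam1, Cldn5, Flt1, Tek, Ly6c1 and Vwf), leukocyte adhesion (Icam1, Vcam1 and Selp) and activation (Apold1). The set was named with the Caspase3 against GFP differences of these same libraries in view and was in that sense chosen by them, so the members' differences are a description and support nothing. Any p-value printed for a member is read from the fit over all genes. All mice carried Gad2-Cre, which drives Cre recombinase in cells that express Gad2, the GABA-synthesising enzyme of inhibitory neurons. An adeno-associated virus was delivered by stereotaxic injection to the piriform cortex of 1 side. In the Caspase3 group (3 libraries) it was AAV-DIO-Caspase3, whose Cre-dependent cargo is a protease that executes apoptosis. In the GFP group (3 libraries) it was AAV-DIO-GFP, the Cre-dependent fluorescent control. Endothelial cells are not the cells in which Gad2-Cre is meant to act. Age, sex, the interval after injection and the side sampled are not given in the sources used here, and the labels do not tie each library to an animal. The p-values therefore speak of library-to-library spread, some of which may be technical.

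Brain endothelial cells line the vessels and form the blood-brain barrier, sealed by tight junctions and largely free of leukocyte adhesion molecules at rest. When inflammatory cytokines act on them, they display selectins, on which leukocytes roll, and then ICAM1 and VCAM1, which bind leukocyte integrins and arrest the cells at the wall. PECAM1 and claudin 5 lie at the cell borders, the tyrosine kinases FLT1 and TEK (Tie2) bind VEGF family members and angiopoietins, and von Willebrand factor is stored with P-selectin in Weibel-Palade bodies. ICAM1 and VCAM1 are not limited to endothelium: microglia, astrocytes and perivascular cells can make them too. The RNA is of whole tissue, so fewer cells of a type and less RNA per cell cannot be told apart.

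Library totals lay between 20424581 and 26268377 counts, so that 3 counts equalled 0.118 to 0.142 CPM, the count scaled by library size after TMM normalisation. Gad2, expressed by the targeted cells, stood at 34.4 ± 6.67 CPM in the Caspase3 group against 104.7 ± 12.8 in the GFP group (SD, n = 3 each; log2 fold change -1.60, adjusted p = 0.00371). The quasi-likelihood test of edgeR covered 16721 genes and called 274 (1.64%) at an adjusted p under 0.05, with 255 (1.53%) higher and 19 (0.114%) lower in the Caspase3 group. In this test a gene with an unadjusted p of 0.0480 ranked 1733 of the 16721, and 1 with 0.0505 ranked 1788. The counts of list genes at an unadjusted p under 0.05, given below, stand beside those ranks. Of the 10 genes followed here, 9 had enough counts to be tested, and Selp did not. Of these 9, Icam1 was called higher, Apold1 was called lower and 7 did not pass, a split from which nothing is read, since the same contrast led to the choice of the set. Their median log2 fold change was 0.11, against -0.00 over all tested genes. For Icam1 and Vcam1 every Caspase3 library lay above every GFP library, which held for 8.96% of all tested genes. For Apold1 every Caspase3 library lay below, which held for 6.29%, and the share without overlap in either direction was 15.2%.

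**Figure D1:**
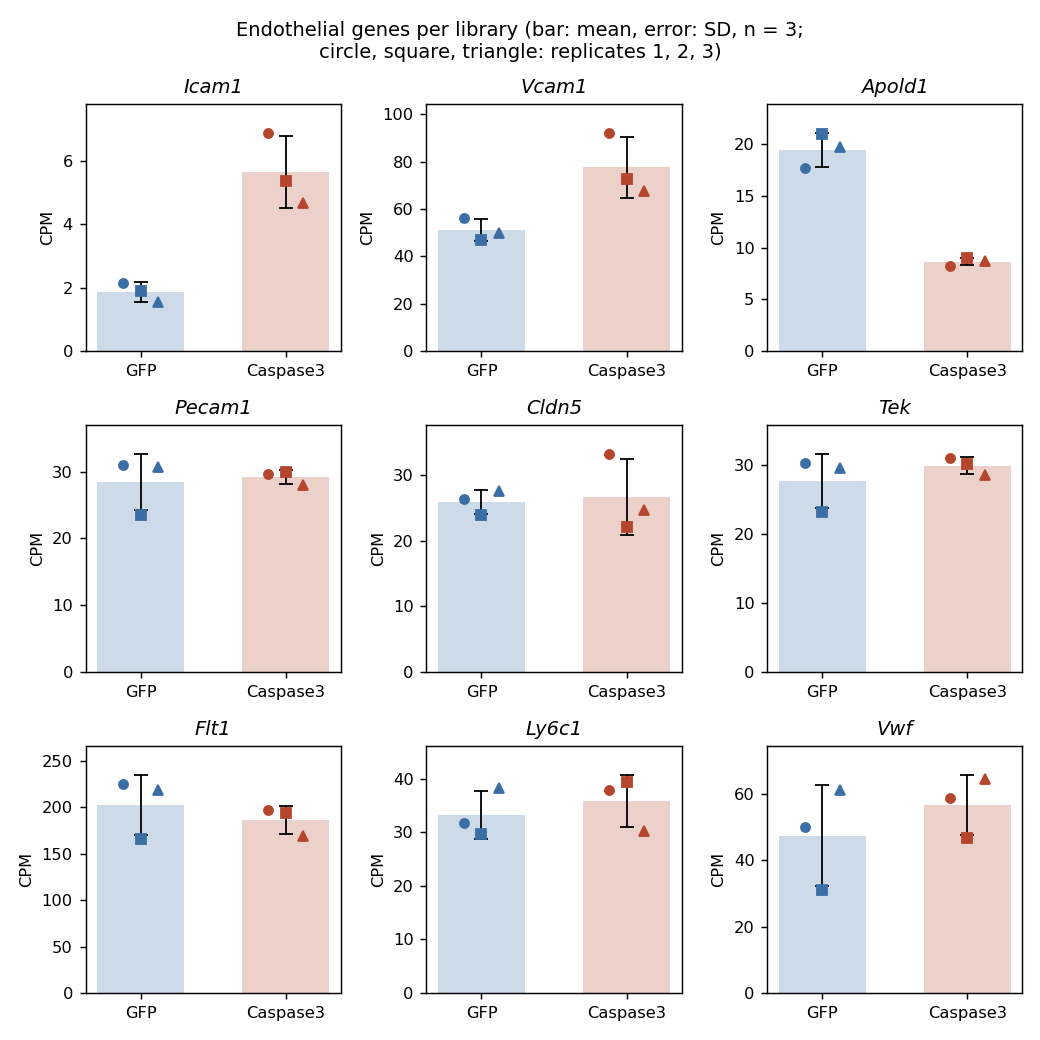
CPM (vertical axis, from 0) of the 9 tested genes in the GFP and Caspase3 libraries, with bars for the mean, error bars for the SD (n = 3) and 1 symbol per replicate number. Icam1 and Vcam1 lay higher in every Caspase3 library than in any GFP library and Apold1 lower, while the groups overlapped in the other 6 panels.

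Icam1 (ENSMUSG00000037405, chromosome 9, 21015985 to 21028817, plus strand, GRCm38) encodes the ligand of the leukocyte integrins LFA-1 and Mac-1. It stood at 6.87, 5.37 and 4.65 CPM in Caspase3 replicates 1, 2 and 3, from 145, 118 and 118 counts. In GFP replicates 1, 2 and 3 it stood at 2.14, 1.90 and 1.54 CPM, from 46, 48 and 35 counts. The lowest Caspase3 library thus lay above the highest GFP library, and the ratio was 3.02-fold, with a log2 fold change of 1.59 ± 0.23 (SE) and an adjusted p of 0.00925. Without GFP replicate 2 the log2 fold change was 1.61 and the adjusted p 0.0658. On the log2(FPKM + 1) scale (FPKM is the fragment count scaled by gene length and library size), which understates changes of low genes, the change was 0.67 (adjusted p = 0.0251). The 3′ end of Icam1 overlaps an exon of Gm47079 on the opposite strand, which had 14 to 27 counts per library and a log2 fold change of 0.28 (adjusted p = 0.807). Whether the counting used strand is not known from the sources used here, so reads in the overlap cannot be told apart.

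The 250 bases before the RefSeq start of Icam1 are shown because the gene was the 1 called higher, beside those of Cldn5, a junction gene whose groups overlapped. They were searched on both strands for a 9-letter motif like that of NF-kB (GGNNNTTCC), an interferon-stimulated response element, the cAMP response element (TGACGTCA), AP-1 (TGANTCA) and the CArG box of serum response factor. The motifs may share letters with each other. Capitals mark the matches, and the stretches are chr9:21015690-21015939 and chr16:18776597-18776846, both on the plus strand of GRCm38.p6, read 5′ to 3′.
Icam1: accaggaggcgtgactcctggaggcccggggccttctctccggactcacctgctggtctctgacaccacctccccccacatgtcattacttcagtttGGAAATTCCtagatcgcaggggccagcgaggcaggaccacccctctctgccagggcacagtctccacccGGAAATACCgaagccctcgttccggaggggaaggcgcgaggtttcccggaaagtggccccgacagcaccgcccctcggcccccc
Cldn5: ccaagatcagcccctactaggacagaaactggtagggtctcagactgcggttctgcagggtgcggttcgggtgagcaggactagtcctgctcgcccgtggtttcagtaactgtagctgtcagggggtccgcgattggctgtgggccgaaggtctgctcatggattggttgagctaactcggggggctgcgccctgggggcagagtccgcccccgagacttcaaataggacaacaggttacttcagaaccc
The Icam1 stretch held 2 NF-kB-like matches starting 153 and 84 bases before the start. The 5 motifs had no match in the Cldn5 stretch. Of 32851 RefSeq stretches of that length and position, 15.7% held an NF-kB-like match. Of the 10 genes, 7 had an entry in the promoter table, and Vcam1, Pecam1 and Vwf had none. An NF-kB-like match was not particular to Icam1: Apold1, which was called lower, held 1 starting 236 bases before its RefSeq start, Selp 1 starting at 14 bases, and 1 of the Ly6c1 starts 1 at 81 bases. The stretches of Apold1 and of that Ly6c1 start overlap exons of the same gene in GENCODE M21, so they do not lie wholly upstream of it. The Selp stretch also held an AP-1 match, found in 6.75% of all stretches, and the Flt1 stretch a cAMP response element, found in 1.55%. The stretch of Tek held none of the motifs. A match is a run of letters and was not tested for binding.

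Vcam1 (ENSMUSG00000027962, chromosome 3, 116109949 to 116129688, minus strand) encodes the ligand of the integrin VLA-4. It stood at 92.2, 72.8 and 67.8 CPM in the Caspase3 libraries and at 56.3, 47.1 and 49.8 CPM in the GFP libraries. The groups did not overlap, Caspase3 replicate 1 was the highest library, and the group means differed 1.52-fold. The log2 fold change of 0.60 ± 0.13 (95% interval 0.31 to 0.90) did not pass over all genes (adjusted p = 0.0633). It passed with DESeq2 (adjusted p = 0.00433), with library totals alone (0.0418) and when low counts were kept (0.000325). It did not pass with limma-voom (0.0788) or when any 1 library was left out (0.0644 to 0.285). An exon of Vcam1 overlaps the untested Gm43109 on the other strand.

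Selp (ENSMUSG00000026580, chromosome 1, 164115264 to 164150026, plus strand) encodes P-selectin, the rolling receptor stored in Weibel-Palade bodies and in platelet granules. It had 1 count in Caspase3 replicate 3 and no count in the other 5 libraries. Both groups were thus under 3 counts, and no fold is given. Sele, the inducible endothelial E-selectin, was at 1, 2 and 1 counts in the Caspase3 libraries and 0 in each GFP library. Neither selectin was therefore measurable at this depth.

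The other leukocyte adhesion genes of endothelium did not pass in edgeR's main fit. Of 14 listed, 9 were tested, none was called by that fit or limma-voom, and 3 had an unadjusted p under 0.05. DESeq2, the replicate block, the fit without GFP replicate 1 and the fit that kept low counts each called 2 higher. With library totals alone 1 was called higher. Their log2 fold changes ran from -0.21 to 1.04, with 5 above and 4 below 0 and a median of 0.02. The most abundant, Cd47, whose product signals to phagocytes and supports leukocyte passage, was at 348.5 ± 25.8 CPM against 389.1 ± 40.3 (adjusted p = 0.689). Icam4 was at 0 counts in all 6 libraries.

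On the leukocyte side, some genes for the counter-receptors of ICAM1 and the selectins rose. Of 8 tested counter-receptor genes 3 rose in edgeR's test and 5 did not pass, and their median change was 0.82 on the log2 scale. The count higher was 4 with DESeq2, 5 when low counts were kept and 2 on the log2(FPKM + 1) scale. Itgb2, the shared beta chain of LFA-1 and Mac-1, rose from 7.60, 5.43 and 5.58 CPM in the GFP libraries to 17.4, 13.6 and 11.5 CPM, a shift of 1.19 ± 0.20 in log2 fold change (SE; adjusted p = 0.0199). Selplg, the P-selectin ligand PSGL-1, rose from 12.1 ± 1.78 to 23.3 ± 4.02 CPM, a log2 fold change of 0.95 ± 0.16 (adjusted p = 0.023). Itgax, an alpha chain that pairs with Itgb2, rose from 0.471 ± 0.282 to 4.25 ± 1.87 CPM, a shift of 3.18 ± 0.45 in log2 (adjusted p = 0.00929). Itgal, the alpha chain of LFA-1, stood at 3.55, 3.32 and 1.03 CPM against 0.979, 0.792 and 0.307 CPM and did not pass in edgeR's test (adjusted p = 0.175). It passed with DESeq2 (0.0119), when low counts were kept (9.15e-05) and without Caspase3 replicate 3 (0.0391). Itgam, the alpha chain of Mac-1, was at 14.1 ± 3.08 against 9.41 ± 1.66 CPM, a shift of 0.58 ± 0.19 in log2. The groups did not overlap for Itgam, and it did not pass in edgeR's test (adjusted p = 0.288). The chains of the VCAM1 receptor VLA-4, Itga4 and Itgb1, were at 22.9 ± 5.12 against 28.6 ± 8.75 CPM and at 162.4 ± 18.0 against 153.8 ± 14.5 CPM (adjusted p = 0.685 and 0.857). None of the 3 calls held without GFP replicate 2 (adjusted p = 0.121 for Itgb2, 0.113 for Selplg and 0.0768 for Itgax), and 1, Itgax, held without GFP replicate 3. Selplg also missed the threshold without Caspase3 replicate 3 (0.0519) and on the log2(FPKM + 1) scale (0.0501). Microglia also make Itgb2, Itgax and Selplg, and microglia markers were higher in the same libraries, with values given with the other cell types.

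Apold1 (ENSMUSG00000090698, chromosome 6, 134981718 to 134986836, plus strand) encodes a membrane protein described as an early response gene of vascular endothelium. It stood at 8.24, 8.96 and 8.76 CPM in the Caspase3 libraries, from 174, 197 and 222 counts. In the GFP libraries it stood at 17.8, 21.0 and 19.7 CPM, from 381, 530 and 449 counts. All Caspase3 libraries lay well below all GFP libraries, and the spread within each group was narrow. The level was 2.25-fold lower in the Caspase3 group, with a log2 fold change of -1.17 ± 0.12 (SE) and an adjusted p of 0.00405, and it passed in all 14 alternative fits (adjusted p = 9.92e-11 to 0.0494, the highest without GFP replicate 2). No exon of another gene overlaps it in GENCODE M21, and none of its 50-base windows occurs in a transcript of another gene.

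Early response genes that vessels and neurons share had 14 of 19 log2 fold changes below 0. Of the 19 tested, 2 fell, none rose and 17 did not pass, and 11 had an unadjusted p under 0.05, with a median log2 fold change of -0.49. Fos, a transcription factor of the AP-1 complex, fell from 80.0 ± 16.9 to 38.9 ± 3.94 CPM, a shift of -1.04 ± 0.15 in log2 (adjusted p = 0.0114). Nr4a1, an orphan nuclear receptor, fell from 95.7 ± 15.4 to 53.3 ± 11.3 CPM, a shift of -0.84 ± 0.17 in log2 (adjusted p = 0.0472). DESeq2 called 8 of the list lower and 1 higher. Without GFP replicate 2 neither gene passed (adjusted p = 0.0585 for Fos and 0.208 for Nr4a1), and Nr4a1 also missed the threshold in 9 further alternatives. Over the 6 libraries, the log2 CPM of Apold1 ran most like those of Gad2, Gabrg3 and Tfb2m among 13120 genes (Pearson r = 0.988, 0.988 and 0.987), and those of Icam1 most like Mcm6, H2-Q7 and Ddx60 (r = 0.998 for each). These likenesses describe 6 points that share the group difference.

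The endothelial identity genes overlapped between the groups. Pecam1, the border adhesion molecule and the standard marker of vessels, stood at 29.6, 30.0 and 27.9 CPM in the Caspase3 libraries and at 31.0, 23.6 and 30.7 CPM in the GFP libraries. The Caspase3 values all fell inside the GFP range, and the log2 fold change was 0.04, with a 95% interval of -0.24 to 0.32 (adjusted p = 0.943). This interval spans 84.4% to 124.7% of the GFP level.

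Cldn5, the main claudin of the blood-brain barrier, stood at 33.3, 22.1 and 24.7 CPM against 26.4, 23.9 and 27.5 CPM. Caspase3 replicate 1 was the highest and Caspase3 replicate 2 the lowest of the 6, and the log2 fold change of 0.04 (interval -0.31 to 0.39, adjusted p = 0.950) became -0.15 without Caspase3 replicate 1. Tek, the angiopoietin receptor, stood at 31.0, 30.2 and 28.5 CPM against 30.3, 23.2 and 29.5 CPM (log2 fold change 0.11, interval -0.16 to 0.39, adjusted p = 0.804). GFP replicate 2 was the 1 low library for Tek, as it was for Pecam1.

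Flt1, a VEGF receptor that also limits VEGF signalling as a decoy, stood at 196.8, 194.3 and 169.3 CPM against 224.7, 165.9 and 218.3 CPM. GFP replicate 2 was lowest, the groups overlapped, and the log2 fold change was -0.12 (interval -0.42 to 0.18, adjusted p = 0.804). Vwf, the clotting glycoprotein carried mainly by larger vessels, stood at 58.9, 46.8 and 64.6 CPM against 50.0, 31.2 and 61.2 CPM. It varied the most among the identity genes, from 31.2 CPM in GFP replicate 2 to 64.6 CPM in Caspase3 replicate 3, and its interval was the widest of the 6 (log2 fold change 0.26, interval -0.24 to 0.76, adjusted p = 0.744). Its log2 fold change was 0.03 without GFP replicate 2 and 0.48 without GFP replicate 3.

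Ly6c1, a GPI-anchored surface antigen abundant on brain endothelium, stood at 37.8, 39.5 and 30.3 CPM against 31.7, 29.7 and 38.3 CPM. The groups overlapped, with a log2 fold change of 0.11 (interval -0.20 to 0.42, adjusted p = 0.828). Its count is uncertain, since 32.8% of the 50-base windows of its transcripts also occur in transcripts of Ly6c2, Ly6a or Ly6i. Ly6c2, a marker of inflammatory monocytes, had 18, 20 and 4 counts in the Caspase3 libraries and 1, 0 and 1 in the GFP libraries, too few to test and few beside the 681 to 871 counts of Ly6c1. Ly6a (Sca-1), which endothelium also makes, was at 33.0 ± 8.43 against 20.7 ± 2.70 CPM, a shift of 0.67 ± 0.18 in log2 without overlap of the groups. Ly6a did not pass in edgeR's test (adjusted p = 0.171) and passed with DESeq2 (0.0257) and when low counts were kept (0.000916). Of 4 tested genes of the Ly6 family edgeR called 1, and DESeq2 called 2. Ly6e, an interferon-inducible member, rose from 80.0 ± 7.41 to 128.9 ± 18.4 CPM, a shift of 0.69 ± 0.12 in log2 (adjusted p = 0.026), and it missed the threshold without GFP 1, GFP 2, GFP 3 or Caspase3 2 (0.0511 to 0.0995).

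**Figure D2:**
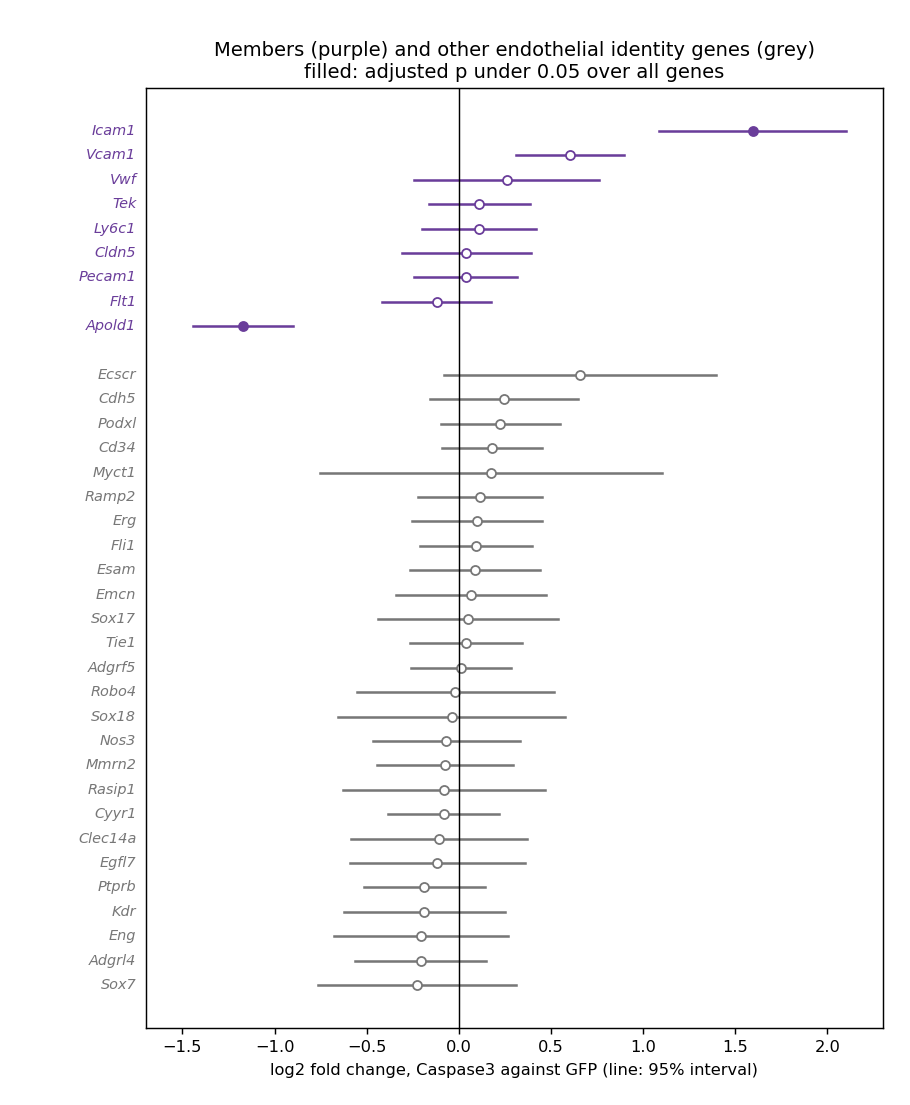
Log2 fold change of the Caspase3 against the GFP group (horizontal axis) with its 95% interval for the 9 tested genes and for 26 other endothelial identity genes, 1 row a gene, with filled points where the adjusted p was under 0.05. Icam1 at 1.59 and Apold1 at -1.17 are the 2 filled points, and the other 26 genes lie between -0.23 and 0.66.

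A separate list of 26 endothelial identity genes gave the level of endothelial RNA without the genes above. All 26 were tested and edgeR, DESeq2 and limma-voom called none, none had an unadjusted p under 0.05, and the median log2 fold change was -0.00, with 13 values above and 13 below 0. Their summed level lay between 554.9 and 631.9 CPM in the Caspase3 libraries and between 490.4 and 656.5 CPM in the GFP libraries (exact permutation test, two-sided, p = 0.8, where 3 against 3 libraries cannot go below 0.1). Ptprb, the endothelial phosphatase that opposes Tek and the most abundant of the list, was at 118.9 ± 5.45 against 135.4 ± 27.6 CPM (adjusted p = 0.713). Cdh5, the VE-cadherin of adherens junctions, was at 26.8 ± 4.97 against 22.6 ± 4.51 CPM, a shift of 0.25 ± 0.18 in log2 (adjusted p = 0.694).

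Barrier and junction genes gave no calls. Among 22 blood-brain barrier transport genes edgeR, DESeq2 and limma-voom called none, 5 had an unadjusted p under 0.05, and the median was -0.01. The most abundant of these, Spock2, which encodes a proteoglycan, was at 776.5 ± 52.4 against 778.5 ± 23.0 CPM (adjusted p = 0.995). Among 13 tested junction genes none was called by these tools, 2 had an unadjusted p under 0.05, and the median was 0.01. Ctnnb1, the beta-catenin that anchors cadherins, was the most abundant at 441.0 ± 27.8 against 436.9 ± 11.1 CPM (adjusted p = 0.977). In this whole-tissue RNA, the cells that hold the Cd47, Spock2, Ctnnb1, Efnb2 and F3 RNA were not identified. Of 6 leakage and caveolar genes, Ehd4, a membrane-remodelling ATPase at caveolae, rose from 18.5 ± 0.621 to 26.3 ± 1.06 CPM, a shift of 0.51 ± 0.10 in log2 (adjusted p = 0.0414), and with any single library removed its adjusted p lay over the threshold (0.0544 to 0.173). Among 10 arterial and 8 tested venous genes edgeR and limma-voom called none and DESeq2 called 1 venous gene higher, with 2 and 3 genes at an unadjusted p under 0.05 and medians of -0.23 and 0.28. The most abundant arterial gene, the ligand Efnb2, was at 111.2 ± 11.3 against 127.5 ± 4.42 CPM (adjusted p = 0.541).

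The ligands and partner receptors of Flt1 and Tek did not pass either. Of 13 tested VEGF and angiopoietin genes none was called by edgeR, limma-voom or DESeq2, 3 were under 0.05 before adjustment, and the median was 0.00. Vegfa, the main VEGF, was at 36.6 ± 3.86 against 44.3 ± 4.82 CPM, a shift of -0.28 ± 0.12 in log2 (adjusted p = 0.439). Pgf, a ligand of Flt1, was at 2.01 ± 0.713 against 1.12 ± 0.398 CPM, a shift of 0.85 ± 0.36 in log2 (adjusted p = 0.449). Angpt1, the activating ligand of Tek, was at 12.7, 12.7 and 13.4 CPM against 10.8, 7.88 and 6.72 CPM, a shift of 0.61 ± 0.18 in log2 (adjusted p = 0.195), without overlap of the groups. Angpt2, its context-dependent antagonist, was at 1.98 ± 0.853 against 1.99 ± 0.878 CPM (log2 fold change 0.00 ± 0.41). Kdr, the main signalling VEGF receptor, was at 37.5, 23.6 and 33.8 CPM against 38.1, 28.2 and 41.8 CPM (adjusted p = 0.786).

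For the genes stored or regulated with Vwf and the response genes usually named with Icam1, edgeR's test on all 6 libraries gave no call. Of 13 tested Weibel-Palade, coagulation and fibrinolysis genes none was called by edgeR, limma-voom or DESeq2, 3 were under 0.05 before adjustment, and the median was 0.24. F3, tissue factor, was the most abundant at 74.1 ± 6.61 against 65.5 ± 6.86 CPM (adjusted p = 0.623). Of 16 tested NF-kB and inflammation response genes edgeR and limma-voom called none, DESeq2 called 3 higher, 6 had an unadjusted p under 0.05, and the median was 0.36. Their log2 fold changes ran from -0.63 to 1.12, with 13 above and 3 below 0. Ptgs2, the inducible cyclooxygenase and the most abundant of the list, had the lowest. It was at 35.2 ± 13.5 against 54.4 ± 13.9 CPM (adjusted p = 0.477).

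**Figure D3:**
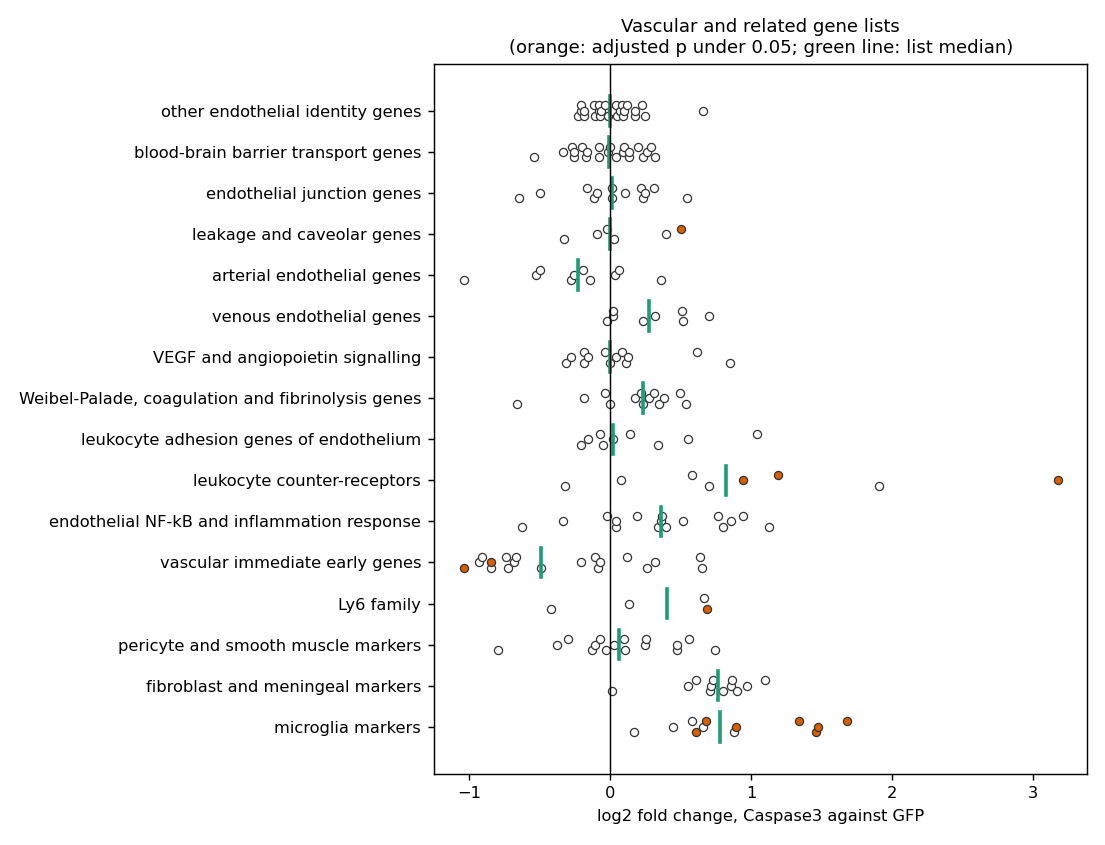
Log2 fold change of every tested gene (points) in 16 lists, with orange for an adjusted p under 0.05 and a green line at each list's median. The endothelial identity, transport, junction and VEGF lists centre within 0.02 of 0, the early response list at -0.49, and the counter-receptor and microglia lists at 0.82 and 0.78.

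Levels were compared between the genes per length, as FPKM. In the GFP group Ly6c1 (19.8 ± 2.56 FPKM), Cldn5 (18.3 ± 1.22) and Flt1 (12.3 to 16.6 over the 3 libraries) were highest, followed by Tek (5.87 ± 0.805), Vcam1 (5.75 ± 0.520), Apold1 (5.46 ± 0.476), Pecam1 (4.56 ± 0.655), Vwf (2.95 ± 0.929) and Icam1 (0.426 ± 0.0706), and Selp was listed at 0. The ranges of Ly6c1 and Cldn5 overlapped, as did those of Tek and Vcam1 and those of Vcam1 and Apold1. Apold1 and Pecam1 were barely apart (lowest 4.97 against highest 4.96 FPKM), as were Pecam1 and Vwf (3.80 against 3.79). In the Caspase3 group Vcam1 (8.66 ± 1.38 FPKM) ranked above Tek (6.28 ± 0.248), and Apold1 (2.40 ± 0.120 FPKM) ranked under Vwf (3.50 ± 0.547). Icam1, at 1.28 ± 0.249 FPKM in the Caspase3 group, was still below every identity gene.

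Within a library, the genes were also set against the counts of the 26 other identity genes. Pecam1 made 47.5, 48.0 and 46.8 counts per 1000 such counts in the GFP libraries and 46.8, 52.4 and 50.3 in the Caspase3 libraries. On this scale the low Pecam1 and Tek of GFP replicate 2 came to the level of the other GFP libraries. Tek made 46.5, 47.2 and 45.0 per 1000 in the GFP libraries (46.2 ± 1.16). In the Caspase3 libraries Tek made 49.0, 52.7 and 51.4 per 1000 (51.0 ± 1.86), a ratio of 1.10. Icam1 made 9.55 ± 1.25 per 1000 in the Caspase3 group against 3.17 ± 0.774, a ratio of 3.01, and Vcam1 131.8 ± 12.5 against 86.1 ± 10.1, a ratio of 1.53. Apold1 made 14.8 ± 1.55 per 1000 against 33.3 ± 8.31, a ratio of 0.445, and was highest in GFP replicate 2 at 42.8. On this scale too, the groups of libraries did not overlap for these 3 genes, and here they did not overlap for Tek either. The share of all genes without overlap was not computed on this scale.

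Microglia markers were higher in the Caspase3 libraries, while 9 of 10 astrocyte markers did not pass (median log2 fold change of the 10, 0.04). Of 12 microglia markers 7 rose, among them Ctss, a lysosomal protease, and C1qa, a complement subunit (log2 fold changes 1.68 and 1.46), and none was at 0. Their summed level was 738.7 to 1029.7 CPM in the Caspase3 libraries against 414.0 to 500.9 CPM. None of the 12 passed without GFP replicate 2 and 3 without GFP replicate 3. Per 1000 counts of microglia markers, Icam1 made 6.67, 7.06 and 6.30 counts in the Caspase3 libraries and 4.28, 4.58 and 3.71 in the GFP libraries, a ratio of 1.59 without overlap. Vcam1 on the same scale was lower in the Caspase3 group, at 92.4 ± 3.15 against 115.4 ± 4.17. The log2 fold changes of the 12 markers ran from 0.17 to 1.68 (median 0.78), against 0.60 for Vcam1. Both ratios therefore depend on which markers are summed. Per 1000 counts of 10 astrocyte markers, of which 1, Gfap, rose (log2 fold change 1.31, adjusted p = 0.0099, not passing without GFP replicate 2), Icam1 made 0.541 ± 0.0527 against 0.172 ± 0.0234 and Vcam1 7.49 ± 0.714 against 4.74 ± 0.0987. The cells that hold the Icam1 and Vcam1 RNA were not identified.

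**Figure D4:**
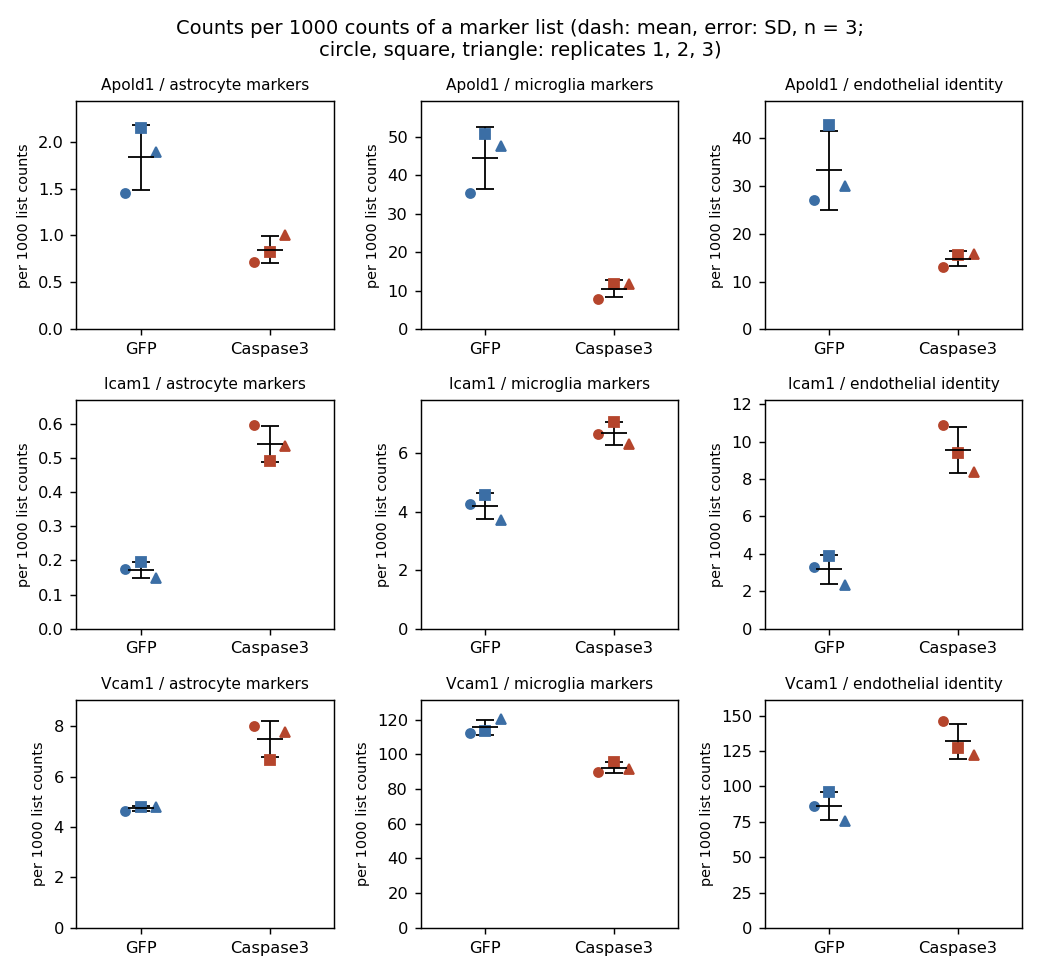
Counts of Apold1, Icam1 and Vcam1 per 1000 counts of astrocyte markers, microglia markers and other endothelial identity genes (vertical axes, from 0), 1 symbol per library with group mean and SD (n = 3). Icam1 lies higher and Apold1 lower in the Caspase3 libraries on all 3 scales, and Vcam1 lies lower on the microglia scale alone. Of the 12 microglia markers summed, 7 were called higher in the same libraries.

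Further lists describe the rest of the tissue in these libraries. All 15 interferon-stimulated genes rose, with Ifit1 and Mx1 at log2 fold changes of 4.39 and 5.54, and 3 of them passed without GFP replicate 2. T and NK cell markers reached the test in 4 cases and rose in 3, among them Cd3e and Cd8a, with a summed level of 4.14 to 8.81 CPM against 0.950 to 4.61 CPM over all 10, and none passed without GFP replicate 2, GFP replicate 3 or Caspase3 replicate 2. Cd4, the 1 tested marker below 0 (log2 fold change -0.86), made 4.13 CPM of the highest GFP sum. It had 94 counts in GFP replicate 3, against 14 and 6 in GFP replicates 1 and 2. Of 8 tested monocyte, macrophage and neutrophil markers Lyz2 rose (summed level of the 12 listed, 65.0 to 135.8 against 34.6 to 59.9 CPM, with Ly6g at 0), which ended without GFP 2, GFP 3 or Caspase3 3. Fibroblast and meningeal markers gave no call with edgeR, DESeq2 or limma-voom, with 3 of 12 at an unadjusted p under 0.05, a median of 0.76 and summed levels of 234.9 to 470.8 against 190.5 to 318.7 CPM. Pericyte and smooth muscle markers gave none either, with 3 of 16 at an unadjusted p under 0.05 and a median of 0.06. Rgs5, their most abundant member, was at 194.1 ± 30.3 against 238.7 ± 30.1 CPM (adjusted p = 0.498). Platelet, red cell, oligodendrocyte, choroid plexus and neuron lists had no call with edgeR or limma-voom, with 1 of 3, 0 of 5, 2 of 11, 2 of 2 and 1 of 10 tested genes at an unadjusted p under 0.05, and DESeq2 called 1 choroid plexus gene higher and 1 neuron gene lower. The part of these cells in the values of Icam1, Vcam1 and Apold1 was not tested, beyond the marker-scaled counts above.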

How the data were processed

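Poly(A) RNA of piriform cortex was read in 6 libraries, 3 a group by the sample titles. Per the submitters' processing notes the builds were mm10 and GRCm38 and the tools HISAT2, featureCounts and DESeq2, without versions or roles. The deposited counts are whole-number reads per gene. The deposited FPKM values were used for levels per length and in alternatives.

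Tests on counts used R 4.3.3 and edgeR 4.0.16 (filterByExpr for low counts, TMM scaling, glmQLFit, glmQLFTest, group only, all 6 libraries, Benjamini-Hochberg over 16721 genes). The SE is the absolute log2 fold change over the square root of F, and 95% intervals use the test's total degrees of freedom. Alternatives were DESeq2 size factors, library totals, no filter, DESeq2 1.42.0, limma-voom and limma (3.58.1) on log2(FPKM + 0.1) and log2(FPKM + 1), a block on replicate number, and leaving out each of the libraries.

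The members and the 25 lists (314 symbols, 311 in the table, 264 tested) were chosen with earlier results of these data known. Named beyond the members were fixed partners (among them Kdr, Angpt1 and Itgb2), up to 2 changed genes a list (smallest adjusted p) or otherwise its most abundant, and the 3 genes most like each called member (log2 CPM, prior count 2, mean of at least 1 CPM, predicted genes left out). Sele, Icam4, Itgam, Ly6g, Ly6i, Gm47079 and Gm43109 were named after their values were seen, as were the motifs and the scaling to marker counts chosen. Some results are not reported here. RefSeq promoter sequences are of GRCm38.p6, and shared 50-base windows were counted in GENCODE M21 transcripts. Intervals carry the spread between libraries, and floors of 3 counts cover counting error only. Figures were drawn with Matplotlib 3.10.9.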

Additional observations from a re-analysis of the deposited data

How the results depend on the processing

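Apold1 was lower and passed in all 14 alternatives, and Icam1 was higher in all 14 and passed in 13, missing without GFP replicate 2. The count of the 9 genes called higher was 2 with DESeq2, library totals alone, no filter on low counts and the replicate block, Vcam1 being the addition, and ran from 0 to 1 with 1 library left out; the count called lower was 1 throughout. The median of the 9 ran from -0.00 to 0.15 with 1 library left out. Pecam1, Cldn5, Tek, Flt1, Ly6c1 and Vwf passed in no alternative. Over all genes, 397 were higher and 98 lower with DESeq2, 160 and 10 with limma on log2(FPKM + 1), and 663 and 250 with no filter, against 255 and 19. With 1 library left out, 15 to 252 were higher and 2 to 33 lower, the lowest counts without GFP replicate 2; 131 were higher without GFP replicate 3, and 33 lower without Caspase3 replicate 1 and 7 without Caspase3 replicate 3. The cause was not tested. With the replicate block, 378 were higher and 43 lower, and Vcam1 had an adjusted p of 0.0203. Deviations of same-numbered libraries correlated at 0.0648, 0.178 and 0.0273. Caspase3 replicate 1 correlated best with GFP replicate 3 (0.0794), and Caspase3 replicates 2 and 3 each correlated best with the GFP library of the same number. The labels do not say that equal numbers pair libraries, and whether they do was not tested. Among the lists, keeping low counts gave 9 fibroblast and meningeal genes higher, 9 early response genes lower and 1 VEGF and angiopoietin gene higher, and the block gave 7 fibroblast and meningeal genes and 4 counter-receptor genes higher, Itgal (adjusted p = 0.00999) among the latter. Depth limits Selp, Sele and Ly6c2, which had too few counts to test.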
